A study of Danio rerio with 2 samples.

Results

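Genes that drive DNA replication and cell division were followed in single cells of the caudal hematopoietic tissue, the niche in the zebrafish tail where blood stem and progenitor cells settle. Members were taken by a rule on gene names, chosen with earlier results of these data known. They are subunits of the replication machinery, enzymes of nucleotide supply, cyclins and their kinases, and the proteins of mitosis. The name rule matched 96 gene IDs, of which 80 were rows of both deposited tables and form the set described here, out of 19955 gene IDs in all. Another match, CCNA1, was a row of 1 table only, and the remaining 15, among them MCM2, MCM7 and CDC20, were not analysed here. The 80 members were grouped by role into 18 for origin licensing and firing, 10 for the replication fork, 5 for nucleotide supply, 5 of chromatin, 6 cyclins and kinases, 12 mitotic kinases and checkpoint proteins, 9 spindle motors and 15 of the kinetochore. The genes cdca3, CDCA4 and cdca5 were placed with the mitotic kinases and checkpoint proteins by their names alone. The first 3 roles are called replication members (33 genes). The last 3 roles, together with CDK1, the A and B cyclins, TOP2A, mki67 and NUSAP1, are called mitotic members (44 genes). The other 3 members, hmgb2b, HMGB2 and CDK2, stood in neither set.

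A dividing cell first licenses its origins by loading the MCM helicase, then copies its DNA behind that helicase with the sliding clamp, clamp loader and polymerases. It then enters mitosis under the kinase CDK1 and B cyclins, and separates its chromosomes on a spindle pulled at the kinetochores. Many replication genes are transcribed under E2F factors toward S phase, and many mitotic genes later, in G2 and M phase. The caudal hematopoietic tissue is known as a site where blood progenitors expand and mature. The roles given below are those known from human cells and yeast.

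All cells came from wild-type animals at 5 days post fertilization (sort day 6) and were sorted as hematopoietic stem and progenitor cells into 2 plates of 384 wells, here plate 20 and plate 21. CEL-seq2, a method that counts the 3′ end of each captured molecule with a molecular identifier, gave 1 value per gene and well, called transcripts here. The authors' layouts class each well as double, single or undefined, and the sources used here do not say which signals define these classes. Each plate was treated as 1 replicate, and nothing states that the plates came from separate clutches or animals, so the p-values speak only of plate-to-plate spread, possibly a technical one. Of the double and single wells, 575 held at least 500 transcripts and were kept as cells: 189 double and 111 single on plate 20, and 186 double and 89 single on plate 21. Their median depths lay between 7170 and 9395 transcripts.

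The cells were also split into 5 ranges by genes that are not members. These are ranges of marker level, not cell types. MYB cells had under 1% of transcripts from globin genes and at least 2 transcripts of MYB, a transcription factor of blood progenitors. They numbered 51 on plate 20 and 55 on plate 21, and their median share of neutrophil markers was 0.0370%. The intermediate range held 1 to 5% globin (77 and 69 cells), and the globin-rich range held over 5% (81 and 77 cells). Low-MYB cells had under 1% globin and fewer than 2 MYB transcripts (55 and 46 cells). The neutrophil-marker range held over 0.5% of neutrophil markers such as lyz and npsn (36 and 28 cells), with median shares of 5.11% and 4.07%. Limits cut through continuous values: 57 cells lay between 0.8 times the 1% globin limit and that limit divided by 0.8, 54 within that distance of the 5% limit, 12 of the neutrophil limit, and 44 low-globin cells had 1 or 2 MYB transcripts. Progenitor markers (15 of 19 listed genes matched, MYB among them) had median shares of 0.158% and 0.155% in MYB cells and 0.0395% and 0.0431% in low-MYB cells. Their shares were 0.131% and 0.136% in the intermediate range, 0.118% and 0.117% in globin-rich cells and 0.0864% and 0.0872% in the neutrophil-marker range. The median share of endothelial markers was 0 in every range. Median depth differed between ranges, at 12563 and 12724 transcripts in MYB cells (plate 20, then plate 21), 8335 and 10162 in the intermediate range, 8257 and 9581 in globin-rich cells, 4344 and 3958 in low-MYB cells, and 4945 and 6665 in the neutrophil-marker range.

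The 80 members held 0.674% of all transcripts in the 575 cells. PCNA, the sliding clamp that holds polymerases on DNA, was the most abundant, with 17.7% of member transcripts and 34.3% of those of the replication members. Levels are given in CPM, the usual scaling of transcripts to a common total per library, which are not divided by gene length because each molecule was counted at its 3′ end. Log2 folds were taken after a further scaling between sums (TMM), which the printed CPM do not carry. A log2 fold can therefore differ from the ratio of the CPM beside it, also in sign. Over the 4 sums of plate and sort class, mean levels ran from 0.503 to 1237 CPM with a median of 43.7 CPM. There were 20 members over 100 CPM and 12 under 10 CPM. The 5 members with under 20 transcripts in all cells together were CENPV, CCNA2, HMGB2, kif20a and the second ID named MCM6. MCM6 and RRM2 each name 2 IDs, and reads may be split between such copies.

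The per-cell share of replication members was high in MYB, intermediate and globin-rich cells and low in low-MYB cells and the neutrophil-marker range. Mitotic members were likewise high in intermediate and globin-rich cells and low in low-MYB and neutrophil-marker cells. In MYB cells the plates differed, and on plate 21 the mitotic median lay nearer to those of the low ranges. Replication members made up a median of 0.292% and 0.268% of a MYB cell's transcripts on plates 20 and 21, 0.391% and 0.381% in the intermediate range, and 0.428% and 0.396% in globin-rich cells. In low-MYB cells the medians were 0.0816% and 0.0891%, and in the neutrophil-marker range 0.0758% and 0.0778%. On both plates the order of the first 3 ranges was the same for the replication members.

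**Figure D1:**
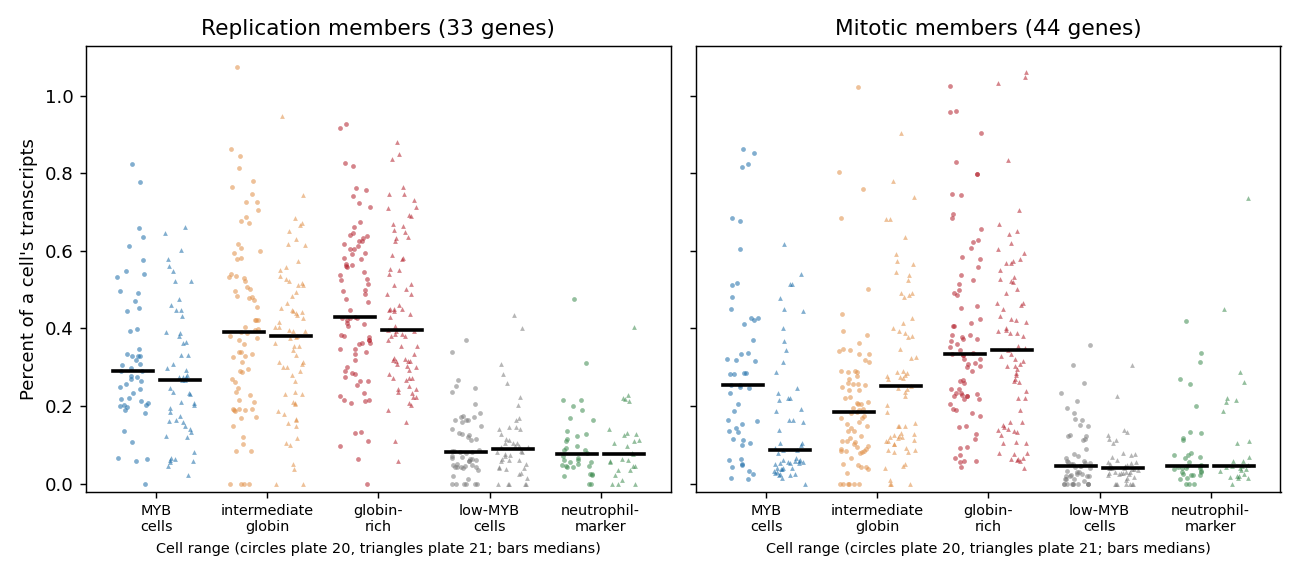
Share of each cell's transcripts (vertical axis, percent) from the 33 replication members and the 44 mitotic members, for the 5 cell ranges. Each point is a cell, circles are plate 20, triangles are plate 21, and bars are medians. The replication medians of the first 3 ranges lie between 0.268% and 0.428%, and those of the last 2 under 0.1%.

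Mitotic members did not follow one order on both plates. Their medians were 0.334% and 0.343% in globin-rich cells and 0.184% and 0.252% in the intermediate range, while MYB cells had 0.255% on plate 20 and 0.0869% on plate 21. Medians in low-MYB cells were 0.0471% and 0.0408%, and in the neutrophil-marker range 0.0461% and 0.0470%. By medians, the plates differed most in the MYB range. Cells with over 0.4% mitotic transcripts numbered 30 of 81 and 31 of 77 in the globin-rich range, 15 of 51 and 8 of 55 among MYB cells, and 6 of 77 and 19 of 69 in the intermediate range. Among low-MYB cells they numbered 0 of 55, with an exact 95% upper limit of 6.49%, and 0 of 46, with a limit of 7.71%, which cover counting error only. In the neutrophil-marker range 1 of 36 and 2 of 28 cells passed 0.4%.

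These orders were also read at equal depth, with each cell thinned to 2000 transcripts and shallower cells left out. The median number of member transcripts per thinned cell was then 13 and 10 in MYB cells, 14 and 15 in the intermediate range, 18 and 16 in globin-rich cells, 3 and 2.5 in low-MYB cells and 3 and 3 in the neutrophil-marker range. The share of thinned cells with at least 5 mitotic transcripts was 66.7% and 66.2% in globin-rich cells and 9.68% and 16% in the neutrophil-marker range. Unthinned, these shares were 92.3% and 95.9%, and 29.0% and 32%. The thinning left out 3 and 3 globin-rich cells, 5 and 3 of the neutrophil-marker range, 1 and 1 MYB cells, 20 and 8 of the intermediate range, and 11 and 6 low-MYB cells. Free RNA in the wells was not measured, and its part in the low shares was not tested.

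Whether member levels differ with globin content was asked by comparing globin-rich with MYB cells. Of the 80 members 68 passed the filter on low counts, and 23 of these were higher in globin-rich cells at an adjusted p under 0.05, while 0 were lower (edgeR quasi-likelihood test, Benjamini-Hochberg adjustment over 8121 genes). Over all genes tested 7.40% were called higher and 6.97% lower, against 33.8% of the tested members called higher. The median log2 fold of the tested members was 0.91 (0.69 on plate 20 and 1.08 on plate 21), beside 0.05 for all genes. By role, 7 of 16 licensing and firing members, 4 of 9 fork members, 2 of 5 of nucleotide supply, 2 of 4 cyclins and kinases, 3 of 12 mitotic kinases and checkpoint proteins, 3 of 7 spindle motors and 2 of 11 kinetochore members were called higher. None of the 4 tested chromatin members was, and their smallest adjusted p in edgeR's quasi-likelihood test was 0.171.

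TYMS, which makes the thymidine nucleotide, stood at 93.7 and 83.6 CPM in MYB cells and at 234 and 241 CPM in globin-rich cells. The ranges did not overlap between plates, and the log2 fold was 1.69 ± 0.25 (SE, adjusted p = 0.000928 in edgeR's quasi-likelihood test). RRM1, the large subunit of ribonucleotide reductase, was at 335 and 268 CPM in MYB cells and at 570.4 and 487 CPM in globin-rich cells, a log2 fold of 1.08 ± 0.20 (edgeR adjusted p = 0.00359). Both enzymes of nucleotide supply with the most transcripts were therefore higher in the globin-rich sums of both plates.

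Among licensing factors, GINS4, a subunit of the GINS complex that joins the MCM helicase at firing, rose from 66.7 and 51.0 CPM in MYB cells to 125 and 118 CPM in globin-rich cells (log2 fold 1.31 ± 0.28, edgeR adjusted p = 0.00825). CDC6, which loads the helicase, rose from 59.6 and 52.4 CPM to 110 and 105 CPM (log2 fold 1.21). GINS2 and GINS3 of the same complex, MCM10, CDCA7 and MCM5 were the other licensing and firing members called higher. MCM5, a helicase subunit, was at 162 and 172 CPM in MYB cells and at 242 and 271 CPM in globin-rich cells. Its partner MCM6 was at 156 and 135 CPM and at 113 and 130 CPM in the same ranges. These CPM were lower in globin-rich cells, while the log2 fold, taken after TMM scaling, was 0.02 ± 0.26 (edgeR adjusted p = 0.988). MCM4, another helicase subunit with many transcripts, was at 241 and 237 CPM and at 295 and 281 CPM (log2 fold 0.53 ± 0.23, edgeR adjusted p = 0.141).

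At the fork, PCNA stood at 1254 and 1029 CPM in MYB cells and at 1577 and 1499 CPM in globin-rich cells, which did not overlap (log2 fold 0.70 ± 0.17, edgeR adjusted p = 0.0135). LIG1, the ligase that joins Okazaki fragments, went from 179 and 156 CPM to 281 and 281 CPM (log2 fold 1.02). POLE, the catalytic subunit of the leading-strand polymerase, and RFC1, the large subunit of the clamp loader, were also called higher. RFC5, another clamp loader subunit, was at 122 and 120 CPM in MYB cells and at 155 and 130 CPM in globin-rich cells and was not called.

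Of the mitotic members, cdca8, a subunit of the chromosomal passenger complex, had the smallest p. It stood at 73.8 and 60.9 CPM in MYB cells and at 164 and 132 CPM in globin-rich cells (log2 fold 1.40 ± 0.27, edgeR adjusted p = 0.00394). CDK1, the kinase that starts mitosis, stood at 220.2 and 143 CPM and at 362 and 339 CPM (log2 fold 1.23). BIRC5, a partner of cdca8, plk1, a kinase of spindle assembly, TPX2, which activates Aurora A, the motors kif11 and KIF23, cenpe and CENPS were called higher as well. CENPS had few transcripts, 5 and 2 in MYB cells and 18 and 25 in globin-rich cells. For kif11, which pushes spindle poles apart, MYB cells held 141 CPM on plate 20 and 34.004 CPM on plate 21, against 202 and 205 CPM in globin-rich cells. Most of its difference between these ranges thus came from plate 21. The proliferation marker mki67 was at 604 and 332 CPM in MYB cells and at 598 and 565 CPM in globin-rich cells and was not called. Other abundant mitotic members were not called either. AURKB was at 148 and 85.0 CPM in MYB cells and at 168 and 156 CPM in globin-rich cells. BUB3 was at 138 and 101 CPM and at 145 and 122 CPM, and CENPF at 106 and 55.3 CPM and at 150 and 105 CPM.

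No member was called lower, and the 4 with a log2 fold under 0 were hmgb2b, ORC3, ORC5 and pold3. The chromatin protein hmgb2b stood at 509 and 390.1 CPM in MYB cells and at 355 and 296 CPM in globin-rich cells (log2 fold −0.19 ± 0.27, edgeR adjusted p = 0.706). ORC3, a subunit of the origin recognition complex, was at 58.2 and 60.9 CPM and at 30.8 and 43.1 CPM (log2 fold −0.41 ± 0.33). Under 1 of the alternatives tried ORC3 was called lower. With globin genes left out of all sums, 18 members were called, beside 1116 of 8037 genes in either direction. Erythroid genes other than globin (15 of 18 listed genes matched) moved with this comparison, from median shares of 0.576% and 0.475% in MYB cells to 1.73% and 1.62% in globin-rich cells, and their part in the result was not tested. The count fell to 10 with DESeq2's Wald test, beside 643 of 8121 genes. It was 7 of 29 tested members when cells were thinned to 2000 transcripts, beside 216 of 2412 genes. Without 15 wells that held over 5% muscle or epidermis transcripts it was 37, beside 1818 of 8098 genes.

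**Figure D2:**
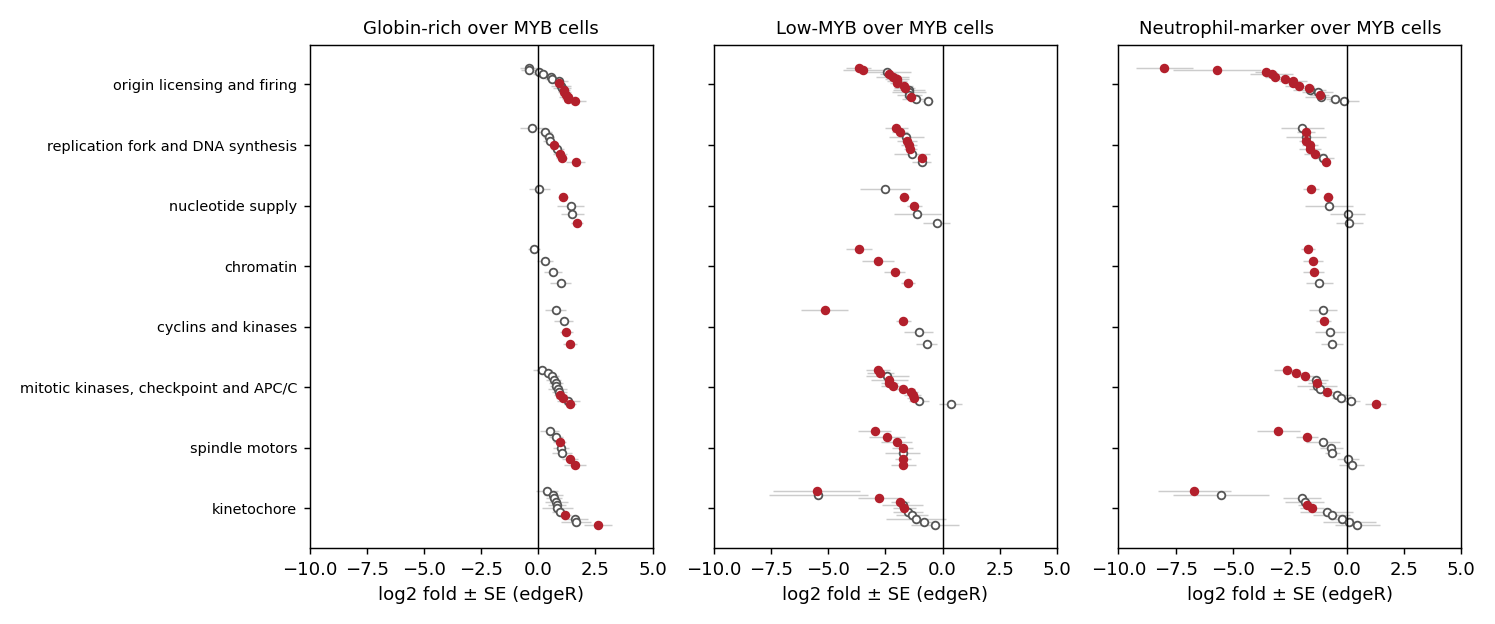
Log2 fold of each tested member against MYB cells (horizontal axis) by role, for globin-rich, low-MYB and neutrophil-marker cells. Points are edgeR estimates with their SE, and filled points passed an adjusted p of 0.05. In the globin-rich panel 23 members are filled, all above 0, and in the other panels 43 and 33 filled members lie below 0, with CDCA4 the 1 filled point above 0.

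Genes of the same processes that the name rule did not take were read from the same test. Of 40 tested genes of a list of other mitotic genes 26 were called higher in globin-rich cells and 0 lower. They included tuba8l4, a tubulin, at a log2 fold of 1.495 ± 0.15 (edgeR adjusted p = 7.19e-05), and cdc25b, the phosphatase that switches on CDK1, at 1.96 ± 0.26. Of 26 other S-phase genes 7 were called higher, among them PRIM1, the primase subunit that starts each new strand, at 1.63 ± 0.26. Of 14 G1 regulators 5 were higher and 1 lower. The E2F factors e2f2 (2.71 ± 0.41), E2F7 and E2F8 were higher, as were RB1 and CDC7, which fires origins. CDK6, the G1 kinase of blood progenitors, was lower, at −1.19 ± 0.27. Of 11 growth inhibitors and stress-response genes, CCNG2 and CDKN3 were called higher. CDKN3 was also on the list of other mitotic genes and was counted only here.

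Cells of the intermediate range were then set against MYB cells. None of the 68 tested members was called in either direction, beside 0.357% of all genes called higher and 0.554% called lower. At an unadjusted p under 0.05, 8 members were higher and 0 lower (11.8% of members, beside 6.70% of all genes higher). DESeq2's Wald test also called 0 members, with 3 at an unadjusted p under 0.05. The median log2 fold was 0.27 (0.17 and 0.47 by plate). TYMS had the smallest p, with 133 and 205 CPM in the intermediate range against 93.7 and 83.6 CPM in MYB cells (log2 fold 1.01 ± 0.25, edgeR adjusted p = 0.0851). Next were cdca8 (log2 fold 0.92), GINS2 (0.84) and CDC6 (0.74). On the lower side RRM2B, a small subunit of ribonucleotide reductase, stood at 9.65 and 9.15 CPM in the intermediate range and at 24.1 and 15.6 CPM in MYB cells (log2 fold −0.94 ± 0.50). CDCA4, cenpw and one of the RRM2 IDs followed with log2 folds between −0.54 and −0.43. TYMS was called at an adjusted p under 0.05 under 6 of the alternatives tried. With the muscle or epidermis wells left out TYMS, cdca8, GINS2, CDC6 and MCM5 were called, beside 345 of 8098 genes.

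In the neutrophil-marker range, 33 of 68 tested members were lower than in MYB cells and 1 was higher. Of all genes tested 19.1% were called lower and 20.6% higher, against 48.5% of members lower and 1.47% higher. The median log2 fold was −1.34 (−1.58 and −1.01 by plate), beside −0.14 for all genes, and −1.29 with the 4 members at 0 transcripts set to their bound. Called lower were 11 of 16 licensing and firing members, 6 of 9 fork members, 2 of 5 of nucleotide supply and 3 of 4 chromatin members. Among the remaining roles 5 of 12 mitotic kinases and checkpoint proteins, 2 of 7 spindle motors, 3 of 11 kinetochore members and 1 of 4 cyclins and kinases were called lower.

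MCM6 stood at 156 and 135 CPM in MYB cells and at 9.45 and 19.9 CPM in the neutrophil-marker range, where it had 2 and 4 transcripts (log2 fold −3.15 ± 0.42, edgeR adjusted p = 7.06e-05). MCM5 was at 162 and 172 CPM and at 28.4 and 29.9 CPM (log2 fold −2.36 ± 0.34, edgeR adjusted p = 0.000125). CDCA7, which recruits a chromatin remodeller, had 137 transcripts in MYB cells and 3 in the neutrophil-marker range, a ratio of levels of 0.0749 with an exact 95% counting interval from 0.0152 to 0.223. All 3 were far below their MYB level on both plates. ORC3 had 84 transcripts in MYB cells and 0 in the neutrophil-marker range, which makes it at least 8.19-fold lower when the floor is 3 counts over the whole range. Other members fell less: MCM4 went from 241 and 237 CPM to 80.3 and 54.7 CPM, and PCNA from 1254 and 1029 CPM to 478 and 608 CPM (log2 fold −0.92 ± 0.17, edgeR adjusted p = 0.000903). The member called higher was CDCA4, at 28.4 and 26.9 CPM in MYB cells and 42.5 and 79.6 CPM in the neutrophil-marker range (log2 fold 1.26 ± 0.46, edgeR adjusted p = 0.0458), and it was not called under 10 of the alternatives tried. BIRC5, kif11 and cenph were the other members with the smallest p above 0, with log2 folds of 0.16, 0.20 and 0.46 and no call. For kif11 the plates went opposite ways, at 56.7 CPM on plate 20 and 110 CPM on plate 21 against 141 and 34.004 CPM in MYB cells.

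This range was shallower than MYB cells, and macrophage markers were slightly above 0 in it, at median shares of 0.0529% and 0.0396%. With cells thinned to 2000 transcripts after the ranges were set, 11 of 28 tested members were called lower, with a median log2 fold of −1.44. Of all genes, 1053 of 2146 were then called in either direction. With thinning first, 2 of 29 members were called lower, beside 862 of 2412 genes called in either direction.

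Of the 5 comparisons made, low-MYB against MYB cells gave the most calls, with 43 of 68 tested members lower than in MYB cells and 0 higher. Of all genes 13.2% were called lower and 20.4% higher, against 63.2% of members lower. The median log2 fold was −1.72 (−1.76 and −1.64 by plate), beside −0.06 for all genes, and −1.69 with the 2 members at 0 transcripts set to their bound. All roles took part: 10 of 16 licensing and firing, 6 of 9 fork, 2 of 5 nucleotide supply, 4 of 4 chromatin, 2 of 4 cyclin and kinase, 9 of 12 mitotic kinase and checkpoint, 6 of 7 spindle motor and 4 of 11 kinetochore members were lower.

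RRM1 stood at 335 and 268 CPM in MYB cells and at 84.9 and 62.5 CPM in low-MYB cells (log2 fold −1.69 ± 0.23, edgeR adjusted p = 0.000114). MCM5 went from 162 and 172 CPM to 22.9 and 42.8 CPM (log2 fold −2.00 ± 0.31, edgeR adjusted p = 0.000336). TOP2A, the topoisomerase that untangles sister chromatids, went from 173 and 96.4 CPM to 16.3 and 0 CPM (log2 fold −3.67 ± 0.58). It had only 5 and 0 transcripts in low-MYB cells, so the size of its fold is uncertain. On both plates all 3 were lower in low-MYB than in MYB cells. CDC6 had 79 transcripts in MYB cells and 2 in low-MYB cells, a ratio of levels of 0.0585 with an exact 95% counting interval from 0.00697 to 0.219. The cyclin CCNB1, which activates CDK1, had 116 transcripts against 1, a ratio of 0.0199 with an interval from 0.000500 to 0.113. PCNA remained the most abundant member here, at 503 and 448 CPM, and its log2 fold was −0.92 ± 0.17 (edgeR adjusted p = 0.00131). MCM4 was at 108 and 132 CPM against 241 and 237 CPM in MYB cells and was not called (log2 fold −0.65 ± 0.24, edgeR adjusted p = 0.0563). CDCA4 was the only tested member with a log2 fold above 0, at 0.36 ± 0.50.

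The limit of 2 MYB transcripts is a count, and low-MYB cells were shallower than MYB cells. Thinning before the ranges are set also changes which cells fall in each range. When cells were thinned to 2000 transcripts before the ranges were set, 0 of 29 tested members were called, beside 188 of 2412 genes. The median log2 fold was then −0.23, with 0 members at an unadjusted p under 0.05. With ranges set at full depth and cells thinned afterwards, 11 of 28 were called and the median was −1.5003. Of all genes, 718 of 2146 were then called in either direction. With the limit set as a MYB level of 200 CPM, 34 members were called lower with a median of −1.29. Beside them 2052 of 7714 genes were called in either direction. Epidermis markers (12 of 15 listed genes matched) also moved with this comparison. Their median shares were 0.369% and 0.328% in low-MYB cells, 0.173% and 0.170% in MYB cells and 0.753% and 0.654% in the neutrophil-marker range. Erythroid genes other than globin were at 0.576% and 0.475% in MYB cells and 0.120% and 0.130% in low-MYB cells. In the neutrophil-marker range they were at 0.123% and 0.108%. Neutrophil markers were at 0.0363% and 0.0392% in MYB cells and 0.110% and 0.116% in low-MYB cells. Macrophage markers were at 0 in MYB cells and 0.0222% and 0.0199% in low-MYB cells. The part of these markers in the result was not tested.

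Growth inhibitors and stress-response genes outside the member set were read in both low ranges. In low-MYB cells 4 of 11 were called higher, beside 20.4% of all genes, and 1 lower, led by the antiproliferative gene BTG1 at a log2 fold of 1.70 ± 0.16 (edgeR adjusted p = 5.14e-06), followed by CCNG2 at 2.30 ± 0.30, BTG2 at 1.34 ± 0.26 and CCNG1 at 0.95 ± 0.30. In the neutrophil-marker range 4 were called higher, beside 20.6% of all genes, and 3 lower. There BTG1 (1.46 ± 0.16), CCNG2 (2.39 ± 0.30), sesn3 and mdm2 were called higher, and SESN1 and pkmyt1 were among those called lower. Both comparisons share the MYB sums. Of the other S-phase genes 11 of 26 were called lower in low-MYB cells and 13 of 26 in the neutrophil-marker range, with DNMT1, the maintenance methyltransferase, at −1.85 ± 0.35 and −1.58 ± 0.35. Of 40 other mitotic genes 25 were called lower in low-MYB cells, and in the neutrophil-marker range 12 were lower and 2, ARL6IP1 and tubb4b, higher.

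Whether the sorted classes differ in these genes was asked by comparing double with single wells. Of the 80 members 71 passed the filter and none was called in either direction. Of all 8488 genes tested 0% were called (edgeR quasi-likelihood test, 4 sums, 1 residual degree of freedom). At an unadjusted p under 0.05 there were 2 members, RFC2 and PCNA, both lower in double wells (2.82% of members), beside 8.53% of all genes in either direction and 3.16% lower. DESeq2's Wald test called 28 genes and 0 members, with 1 member at an unadjusted p under 0.05. With cells thinned to 2000 transcripts, edgeR called 1 of 39 tested members, MCM5, lower at a log2 fold of −0.93. Of all genes, 119 of 3037 were then called in either direction. On simulated sums with the same dispersion for all genes, the test recovered 8.89% of 2-fold changes and 69.1% of 4-fold ones. Changes were put only into genes with many transcripts, so recovery of members with few transcripts is not known.

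Summed over all members, double wells held 6365 CPM and single wells 7358 CPM on plate 20, and 6630.1 and 7055 CPM on plate 21. The median log2 fold was −0.18 (−0.08 on plate 20 and −0.21 on plate 21), beside 0.01 for all genes. Lower on both plates were 30 of 71 members, beside 27.3% of all genes, and higher on both were 11, beside 28.5% of all genes. On plate 20 PCNA had a level of 1074 CPM in double wells against 1464 CPM in single wells, and on plate 21 one of 1136 CPM against 1275 CPM (log2 fold −0.33 ± 0.11, edgeR adjusted p = 0.532). Double wells were the lower ones on both plates, but the difference between classes did not pass the test. RFC2, a clamp loader subunit, had a log2 fold of −0.55 ± 0.16 (edgeR adjusted p = 0.496), GINS4 −0.41 ± 0.17 and bub1, a checkpoint kinase, −0.42 ± 0.17. On the higher side TOP2A had 0.25 ± 0.16, CDCA4 0.51 ± 0.34, CENPL 0.61 ± 0.44 and bub1bb 0.35 ± 0.29.

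**Figure D3:**
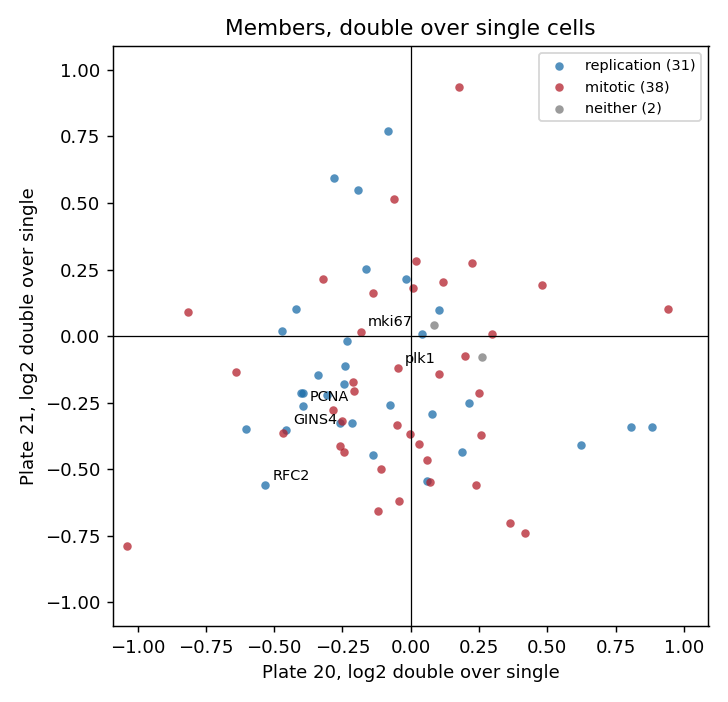
Log2 fold of each of the 71 tested members, double over single wells, on plate 20 (horizontal axis) and plate 21 (vertical axis), coloured by set. Points in the lower left, 30 members, were lower in double wells on both plates, and PCNA, RFC2 and GINS4 lie there.

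The mix of ranges differed between the classes. Globin-rich cells made up 36.0% and 46.1% of single wells and 21.7% and 19.4% of double wells (plates 20 and 21), and MYB cells 14.4% and 8.99% of single wells and 18.5% and 25.3% of double wells. Among globin-rich cells the replication members summed to 4651 CPM in double and 4958 CPM in single wells on plate 20 and to 4826 and 4277 CPM on plate 21, so that the plates went opposite ways. Among MYB cells double wells were the lower ones on both plates, at 3352 against 3754 CPM and 2807 against 4155 CPM, with only 16 and 8 single cells. In fits restricted to globin-rich, intermediate or MYB cells 0 members were called, and the median log2 folds were 0.10, −0.04 and −0.05, beside −0.18 over all cells. The low-MYB and neutrophil-marker ranges were not fitted in this way. In the intermediate range of plate 20, all members summed to 5778 CPM in double and 8719.7 CPM in single wells, and on plate 21 to 8098 and 8009 CPM. The mitotic members summed to 2840.2 and 2985 CPM in double and single wells of plate 20 and to 2819 and 3017 CPM on plate 21, so double wells were slightly lower over all cells. Within 3 of the ranges they were the higher ones on both plates. Mitotic members summed to 3479 against 3335 CPM and 2244 against 908 CPM in double and single wells of the MYB range. Among low-MYB cells the sums were 897 against 478 CPM and 475 against 279 CPM. In the neutrophil-marker range, with 8 and 6 single cells, they were 1094 against 474 CPM and 1469.7 against 537 CPM. The plates went opposite ways in the intermediate range, at 2192 against 3593 CPM and 3495 against 3419.7 CPM, and in the globin-rich range, at 5058 against 3328 CPM and 3976 against 4195 CPM. These differences within ranges were not tested.

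Replication and mitotic members varied from cell to cell in different ways. Over all cells their summed shares were positively related, with Spearman's rho of 0.39 over 300 cells of plate 20 and 0.41 over 275 cells of plate 21. This is a description across cells that share a plate and depth, and each share also had a rho of 0.38 to 0.41 with the cell's total transcripts. Within the MYB, intermediate and globin-rich ranges, limited to cells with at least 3000 transcripts, rho was −0.20 (180 cells) and −0.02 (185 cells). With PCNA left out of the replication members it was −0.12 and 0.10. In these cells the mitotic share still had a rho of 0.24 and 0.30 with total transcripts, and the replication share −0.02 and 0.10. By range, with PCNA kept, the rho between the sets was −0.14 (49 cells) and 0.17 (53 cells) in MYB cells. It was −0.21 (55 cells) and −0.13 (59 cells) in the intermediate range, and −0.31 (76 cells) and −0.43 (73 cells) in globin-rich cells. Within low-MYB cells it was 0.43 and 0.23, and within the neutrophil-marker range 0.30 and 0.44, each over 22 to 37 cells. Values within ranges leave out shallower cells and those over all cells do not, so these sets of values differ in depth as well as in range.

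**Figure D4:**
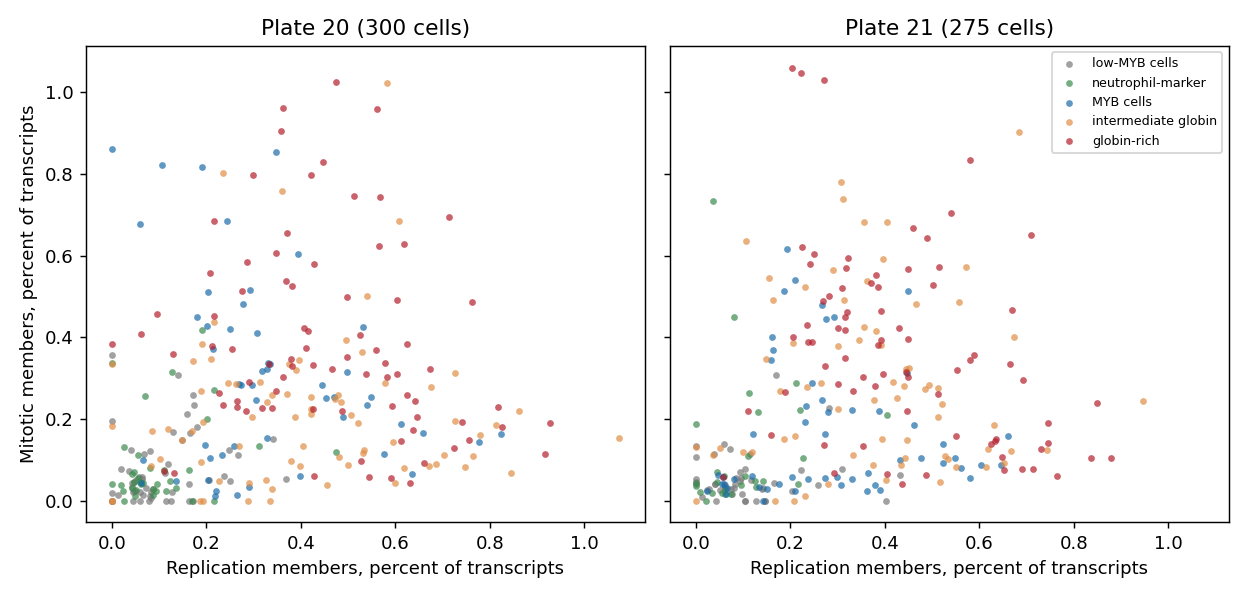
Share of replication members (horizontal axis, percent of a cell's transcripts) against share of mitotic members (vertical axis) for 300 cells of plate 20 and 275 of plate 21, coloured by range. Low-MYB and neutrophil-marker cells sit near the origin. Globin-rich cells spread along both axes, with a rho of −0.31 and −0.43 over the 76 and 73 of them with at least 3000 transcripts.

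Pairs of members were then correlated over the 180 and 185 cells of the MYB, intermediate and globin-rich ranges, as log2 of transcripts per 10000 plus 1, for the 64 members seen in at least 15% of cells. The median Pearson r was 0.17 on plate 20 and 0.21 on plate 21 among 528 pairs of mitotic members, 0.08 and 0.10 among 406 pairs of replication members, and 0.01 and 0.03 among 957 pairs across the sets. Most pairs in sparse counts are weak, and no pair is given a test. Ranked by the lower r of the plates, the strongest pair was plk1 with kif11 (0.59 and 0.59), followed by CDK1 with kif11 (0.55 and 0.55) and CCNB1 with kif11 (0.54 and 0.61). On plate 20 alone NUSAP1 with kif11 was highest (0.63), and on plate 21 alone CCNB1 with cdca3 (0.63). By the same ranking the strongest pair among replication members was MCM4 with MCM5 (0.56 and 0.52), 2 subunits of the same helicase, and MCM5 with MCM6 reached 0.46 and 0.48.

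**Figure D5:**
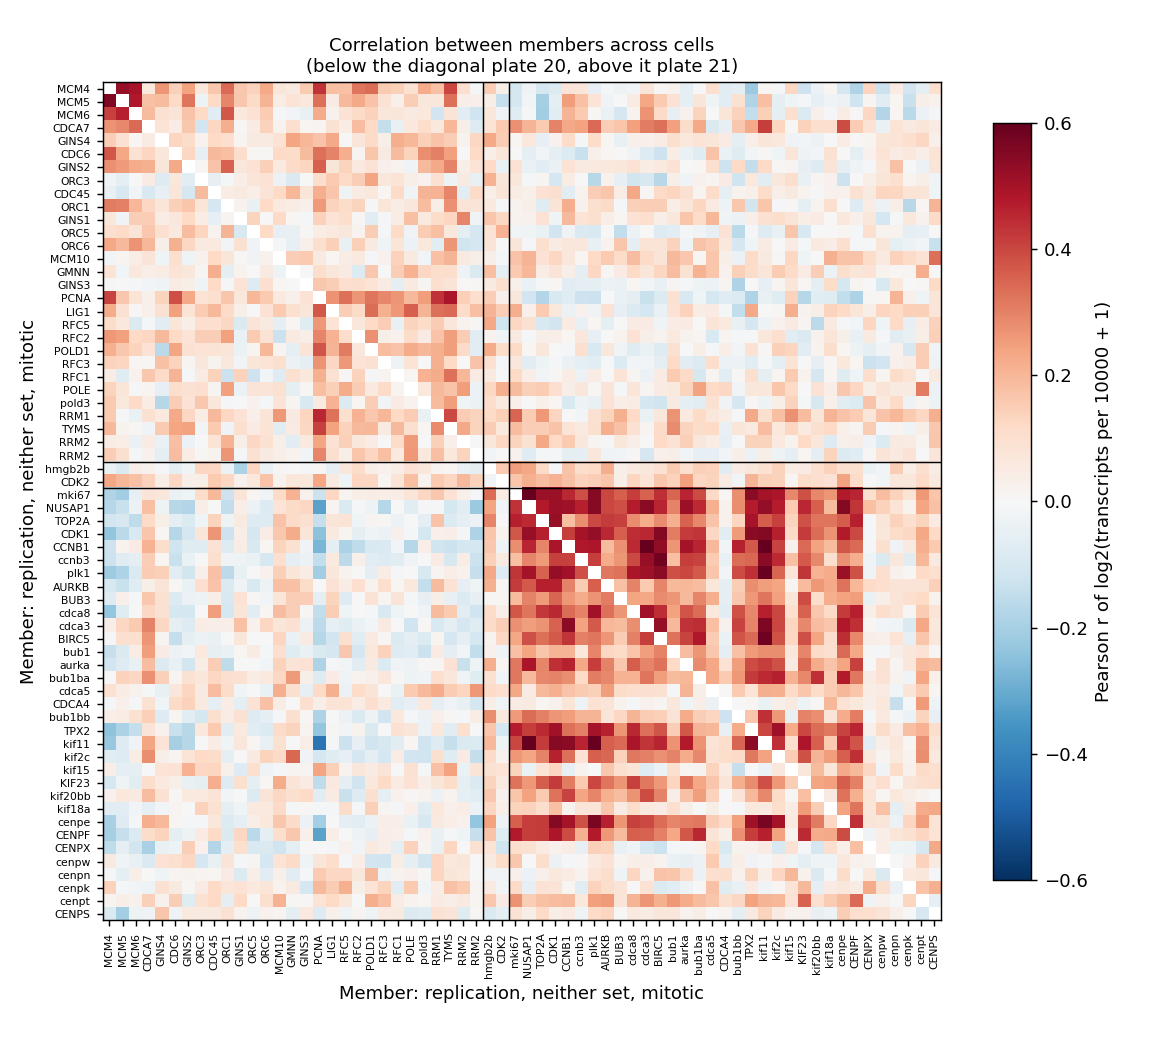
Pearson r between 64 members across cells of the MYB, intermediate and globin-rich ranges, on a colour scale from −0.6 to 0.6, below the diagonal for plate 20 and above it for plate 21. Lines separate replication members, members in neither set and mitotic members. The mitotic block at the lower right holds most of the strong pairs, with MCM4, MCM5 and MCM6 at the upper left.

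Single members followed their own set to different degrees over these cells. Each member was set against the sum of each set, itself left out. PCNA had an r of 0.63 and 0.68 with the replication sum and −0.20 and −0.01 with the mitotic sum. MCM4 had 0.50 and 0.52 with the replication sum and −0.28 and −0.07 with the mitotic sum, while plk1 had 0.68 and 0.66 with the mitotic sum and −0.15 and 0.04 with the replication sum. CDCA7, counted with licensing by its name, had 0.18 and 0.14 with the replication sum and 0.15 and 0.33 with the mitotic sum. The chromatin protein hmgb2b, which stood in neither set, had −0.02 and 0.23 with the replication sum and 0.33 and 0.21 with the mitotic sum. CDCA4, placed among the mitotic members by its name, differed from the rest in the neutrophil-marker range. It was near 0 with both sums, at 0.04 and −0.09 with the replication sum and 0.07 and −0.09 with the mitotic sum.

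Genes outside the set whose cell-to-cell pattern was most like each sum were ranked by the lower of the plates' Pearson r among 4858 named genes. Over all cells the replication sum was most like PRDX1 (0.68 and 0.65), a peroxidase, and UROD (0.64 and 0.65), an enzyme of heme synthesis, and the first 10 also held hemgn and SPTB of red cells. Over all cells the mitotic sum was most like tuba8l4 (0.59 and 0.59), and the first 10 also held the spindle genes kifc1 and tacc3. Within the MYB, intermediate and globin-rich ranges, a choice made after the data were seen, the replication sum was most like ANP32B (0.53 and 0.47), with FEN1, the flap nuclease of Okazaki fragments (0.45 and 0.53), and DNMT1 (0.40 and 0.46) among the first 10 genes. The heme enzyme UROD was also among these 10. In the same cells the genes most like the mitotic sum were tacc3 (0.66 and 0.69), kifc1 (0.64 and 0.60), KPNA2 (0.62 and 0.60) and tuba5 (0.65 and 0.56), and the first 10 also held the checkpoint genes MAD2L1 and TTK. All of these correlations describe cells that share a plate, a library preparation and depth.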

How the data were processed

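Cells of 2 plates were sorted and processed by CEL-seq2, per the labels' protocols, and reads were aligned with BWA to Zv9, per the submitters' processing notes. The sources used here give no aligner version, counting tool or filter. The values in the deposited tables are expected counts for each gene in each well, with no scaling by depth. Of 1273614 values above 0, 100% lay within 0.01 of a whole identifier count corrected for repeated draws from 4096 identifiers. The deposited layouts gave each well's sort class. Well numbers for plate 21 were assumed to run along rows, as on plate 20. Names came from a table of gene IDs, which named 15742 (78.9%) of 19955 IDs. Many are names of human genes. No sequence is printed and the planned search of promoters was not made, since no sequence table was used here. The genes kdrl and runx1 were not analysed here.

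Double and single wells with at least 500 transcripts were kept, spike-ins were left out, and no doublet caller was run on these sorted wells. Values were summed per plate and sort class (4 sums) and per plate and range (10 sums, 4 residual degrees of freedom) and rounded to whole numbers. The two-sided test was the quasi-likelihood F test of edgeR 4.0.16 in R 4.3.3, with plate as a block, TMM scaling, the filterByExpr filter and Benjamini-Hochberg adjustment over all genes tested. The plates are the replicates and each holds every group, so the plate pairs the sums by design. The SE of a log2 fold was taken from its F value, and folds per plate used TMM-normalized CPM plus 1. The test was run on simulated sums, with the same dispersion for all genes and changes only in genes with many transcripts. For globin-rich against MYB cells (8121 genes) it recovered 10.5% of 2-fold and 67.4% of 4-fold changes, with 1 false call. Named were the 3 most abundant members of each role, the 4 members with the smallest p in each direction of each comparison and the 10 genes most like each sum. A few other members and genes named beside them were picked once their values were known. The members, gene lists and ranges were chosen with earlier results of these data known. Alternatives covered normalization, test, filters, cell minimum, thinning, the block, the limits of the ranges, wells left out and the reading of the plate 21 layout. Added after seeing the data were fits within single ranges, only double wells, thinning after the ranges were set, and a MYB limit of 200 CPM. The other test was that of DESeq2 1.42.0.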

Additional observations from a re-analysis of the deposited data

Results flagged for a closer look

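Replication members differed between double and single wells in opposite directions in different ranges. Among low-MYB cells their summed level was higher in double wells on both plates, at 1122 against 965 CPM and 1411 against 489 CPM. Among MYB cells it was lower in double wells on both plates, at 3352 against 3754 CPM and 2807 against 4155 CPM. The mean log2 fold in low-MYB cells exceeded that in MYB cells by 1.24. It exceeded that in the intermediate range by 1.15, where double wells were lower on both plates, at 3289 against 4716 CPM and 4105 against 4193 CPM. These differences between ranges were not tested, and they rest on 19 and 13 single low-MYB cells and 16 and 8 single MYB cells.

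Undefined wells, which entered none of the reported comparisons, also held members. On plate 20, 7 of 9 such wells had at least 500 transcripts and together held 2228 CPM of member transcripts. On plate 21, 9 of 12 did, with 5519.6 CPM. Both are above the level of 3 counts, 53.1 and 43.1 CPM. Per well, members made up between 0.0709% and 0.697% of transcripts on plate 20 and between 0.0215% and 1.08% on plate 21, with medians of 0.249% and 0.233%.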

How the results depend on the processing

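With 2 plates, leaving out 1 leaves no residual degrees of freedom, so the counts could not be tested without a plate. The median log2 folds by plate are in the report. Against MYB cells no median log2 fold changed sign under the alternatives run. The medians ranged from 0.69 to 1.16 for globin-rich cells, 0.04 to 0.58 for the intermediate range, −1.63 to −0.998 for the neutrophil-marker range and −2.04 to −0.23 for low-MYB cells. For double against single wells the median ranged from −0.21 to 0.10, the latter in globin-rich cells alone. Without the replicate block, that is with the plate left out of the model, 0 members were called for double against single wells, 19 for globin-rich, 0 for intermediate, 34 for neutrophil-marker and 43 for low-MYB cells, and none of the named members reversed.

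Counts moved by over 1.5 times in these cases. DESeq2's Wald test called 10 members for globin-rich (23 as reported), 20 for neutrophil-marker (34) and 28 for low-MYB cells (43). Of 8121 genes it called 643, 2347 and 1816 in these comparisons. Thinning to 2000 transcripts gave 1 for double against single, 7 for globin-rich, 2 for neutrophil-marker and 0 for low-MYB cells, and thinning after the ranges were set gave 10, 11 and 11 for these 3 ranges and 1 for the intermediate range. Thinning also reduced the genes tested, to 3037 for the classes and to 2412 and 2146 for the ranges. Of the 2412 genes, 216, 862 and 188 were called for globin-rich, neutrophil-marker and low-MYB cells. Of the 2146 genes, 340, 1053 and 718 were called. Globin limits of 0.5% and 2.5% gave 12 for globin-rich cells, beside 591 of 5878 genes. Leaving out the muscle or epidermis wells gave 37, beside 1818 of 8098 genes. For the intermediate range, with 0 as reported, a limit of 1 MYB transcript gave 1, globin limits of 2% and 10% gave 2, the largest well left out gave 1, the muscle or epidermis wells left out gave 5, no filter gave 1 and only double wells gave 1. For double against single wells, genes called in all rose from 0 to 371 with no filter, 119 when thinned and 86 without the muscle or epidermis wells. The cause of these changes in counts was not tested.

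Of the single log2 folds recomputed, 680 kept direction and call or, with 1 plate left out and no test, stayed within their SE. With 1 plate left out, 18 moved by more than their SE, and a change of sign in a member not called was not counted as reversed. Under the other alternatives 23 lost and 11 gained the call, and 18 reversed, none of them called as reported. Double against single, these were TOP2A at −0.029 and bub1 at 0.27 when thinned, GINS4 at 0.066 in globin-rich cells, bub1bb at −0.0075 in intermediate cells, and TOP2A at −0.045 and CENPL at −0.17 with the plate 21 layout read down columns. For globin-rich cells they were hmgb2b at 0.19 when thinned, ORC3 at 0.22, ORC5 at 0.10 and pold3 at 0.50 with globin limits of 0.5% and 2.5%, and ORC5 at 0.046 in double wells. For intermediate cells they were CDCA4 at 0.010 and cenpw at 0.38 with globin limits of 2% and 10%, and RRM2 at 0.14 in double wells. For the neutrophil-marker range they were kif11 at −0.32 with those limits, −0.074 with a neutrophil limit of 0.25% and −0.046 with no filter, and BIRC5 at −0.10 with no filter.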
